A study of Mus musculus with 18 samples.

Results

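The cytosolic ribosomal protein genes were taken as every gene whose symbol is Rpl or Rps followed by a number, together with Rplp0, Rplp1, Rplp2 and Rpsa. Rps6k kinases, Rps19bp1 and pseudogenes were left out. The rule found 79 genes on 102 probes, among 18976 named genes and 35008 gene probes in the series. They comprised 44 genes of the large subunit, 30 of the small subunit and 5 paralogues (Rpl3l, Rpl7l1, Rpl36al, Rpl39l and Rps27l). RNA came from mouse embryonic stem cells (ESC), from embryoid bodies (EB) and from adult tissue.

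The ESC were of the MES3 line, derived from a C57BLxCBA blastocyst and kept with the cytokine LIF on mitomycin-inactivated mouse embryonic fibroblasts, so RNA of feeder cells can be present. EB are floating aggregates; here they came from ESC colonies moved to low-adhesion plates without LIF and b-mercaptoethanol, and were collected after 3 or 7 days. There were 2 samples of ESC, 3 of 3-day EB, 3 of 7-day EB and 2 of adult tissue. All ESC and EB derive from 1 line, and the labels do not name the organ or age of the adult samples. UniSet Mouse 20K arrays carried ESC replicate 1, replicates 1 and 2 of each EB age and both adult samples, whereas Mouse Whole Genome arrays carried ESC replicate 2 and replicate 3 of each EB age. Every ESC and EB sample was read on 2 arrays and each adult sample on 1, for 18 arrays.

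The ribosome is built from ribosomal RNA and a set of ribosomal proteins, each normally present in a single copy per particle apart from the stalk proteins. The small subunit decodes the messenger RNA and the large subunit joins amino acids. In mammals the messages of these genes are abundant and share a pyrimidine-rich start, the 5′ terminal oligopyrimidine tract, through which mTOR signalling sets how much they are translated. Their message level and their translation are separate quantities, and only the former was measured here. Several mouse ribosomal protein genes have autosomal or tissue-restricted paralogues, such as Rpl39l, which is known for its expression in male germ cells, and Rpl3l, known from heart and skeletal muscle.

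Sequences around the annotated transcription start are shown for members that the results turn on: Rpl39 with its paralogue Rpl39l, Rps27 with Rps27l, and Rpl27 and Rps7, which were among those most different from adult tissue. Each runs from 30 bases before the start through 20 bases from it, as in RefSeq for GRCm38.p6, and capitals mark runs of C followed by at least 5 bases that are each C or T.
Rpl39 (chrX:37085203-37085252, minus strand): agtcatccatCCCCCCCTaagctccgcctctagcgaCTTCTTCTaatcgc
Rpl39l (chr16:10170198-10170247, plus strand): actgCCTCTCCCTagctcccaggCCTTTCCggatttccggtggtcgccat
Rps27 (chr3:90213629-90213678, minus strand): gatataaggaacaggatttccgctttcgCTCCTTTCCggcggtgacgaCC
Rps27l (chr9:66946056-66946105, plus strand): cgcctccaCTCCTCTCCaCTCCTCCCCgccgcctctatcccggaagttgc
Rpl27 (chr11:101442215-101442264, plus strand): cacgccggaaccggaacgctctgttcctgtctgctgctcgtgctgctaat
Rps7 (chr12:28635934-28635983, minus strand): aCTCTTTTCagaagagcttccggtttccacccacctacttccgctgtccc

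A start window was available for 61 of the 79 members. Such a run, counting at least 6 bases that fell within 10 bases before or after an annotated start on the gene's own strand, was found in 30 of them (49.2%), against 4700 of 27025 genes (17.4%). The letters TTCCG, part of the sequence that ETS-family factors such as GABP are known to bind, occurred on either strand within the 300 bases from 250 before to 50 after the start in 55 members (90.2%) and in 32.7% of all genes. In the 6 sequences above, Rpl39l, Rps27 and Rps27l met that count, and Rpl39, Rpl27 and Rps7 did not. The counted runs of Rpl39l and Rps27l lie wholly before the annotated start, and that of Rps27 spans it. Meeting the count therefore does not show that a message begins with the tract, nor missing it that it does not. The capitals closing the Rps27 sequence begin a run that goes on past it, and Rps27l has another annotated start, not shown, without such a run. Letters in a window show neither a bound factor nor a regulated message.

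Intensities were quantile-normalized within each platform and are given as log2 values, so levels can be set against each other only for 1 probe on 1 platform. Of the 79 members, 62 had a probe on both platforms, 4 on the Whole Genome arrays only, 9 on the adult arrays only, and 4 on adult and Whole Genome arrays through different probes. After the filter on dim probes, 61 members were tested both between ESC and EB and against adult tissue. All but 3 of the 64 member probes common to the platforms were above background on all 18 arrays. On the UniSet arrays 27.8 to 36.2% of gene probes were above background in ESC and EB and 52.6 to 57.8% in adult tissue, and on the Whole Genome arrays 60.7 to 72.0% were. Member spots saturated mostly on the Whole Genome arrays, where 5 to 33 of the 64 probes did so per array, against 1 spot on UniSet, that of Rpl41 in adult replicate 2. Of the 61 tested members, 33 had a saturated Whole Genome spot, where a difference can be understated. Rpl27a, Rpl4, Rpl41 and Rps27a were saturated on all 6 Whole Genome arrays and have only a bound there.

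Between ESC and EB the median fitted log2 difference over the 61 tested members was 0.02 at 7 days and 0.09 at 3 days. With saturated spots left out, 37 members could be tested and the medians were -0.011 and 0.24, and between the EB ages -0.25. Median centring gave -0.32 at 7 days. Rpl39l, the germ-cell-associated paralogue of Rpl39, was the single member that passed the test, with a rise at 7 days. At 7 days 54 members lay within 0.5 of no difference on the log2 scale, and at 3 days 55 did. No member fell past the threshold in either comparison. The large subunit had a median of 0.03 at 7 days over 35 members, and the small subunit had -0.02 over 22.

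The test was limma's moderated test over 6301 genes with the platform as a term, called at a Benjamini-Hochberg adjusted p under 0.05. At 7 days it called 5.17% of genes tested in either direction and 1.81% as higher and 3.36% as lower than ESC, so 1 of 61 members is near the background. At 3 days it called 3.02% of genes, 0.730% as higher and 2.29% as lower, and 0 members, with 5 members at an unadjusted p under 0.05 where 19.0% of all genes were. Between 7-day and 3-day EB it called 0.00% of genes, with 929 genes (14.7%) and 5 members at an unadjusted p under 0.05, and the members' median difference was -0.09. On simulated data with 200 changed genes, the 7-day test recovered 43 of 100 genes changed by 1 on the log2 scale and 85 of 100 changed by 2, so a change of 1 in a member can be missed. Over all genes tested, the medians of the 7-day, 3-day and 7-against-3-day differences were 0.04, 0.06 and -0.04.

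The members' median difference from the ESC sample of the same platform was 0.03 and 0.07 in 3-day EB replicates 1 and 2, and -0.00 and 0.02 in 7-day EB replicates 1 and 2. On the Whole Genome arrays it was 0.13 in 3-day EB replicate 3 and -0.01 in 7-day EB replicate 3. The medians were thus alike, but the spread over members was not: its SD was 0.20 to 0.25 in the 4 UniSet samples, 0.48 in 3-day EB replicate 3 and 0.69 in 7-day EB replicate 3. Over all genes tested the SD was 0.63 to 0.81 in the UniSet samples and 0.88 and 0.90 in the Whole Genome samples. In 7-day EB replicate 3, 5 members lay more than 1 below its ESC sample and 2 more than 1 above it, whereas no member lay more than 1 below in any UniSet EB sample. Those arrays carry another analysis date in their headers than the ESC and 3-day EB arrays of the platform, so date and sample cannot be told apart there.

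**Figure D1:**
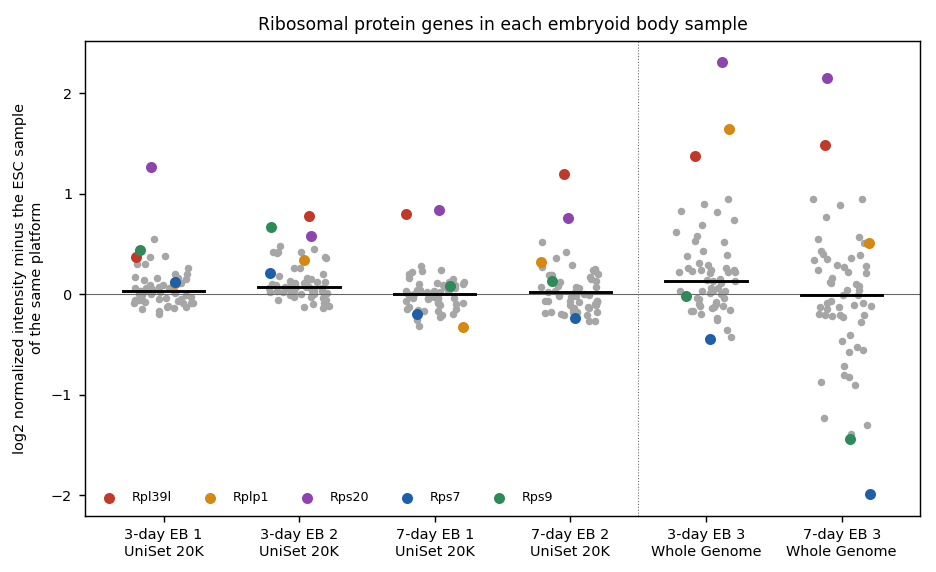
Each point is 1 of the 61 tested members in 1 EB sample, as log2 normalized intensity minus the ESC sample of the same platform (y axis), with black lines at the sample medians and 5 members coloured. Medians lie between -0.01 and 0.13 in all 6 samples, and the points spread most in 7-day EB replicate 3, where Rps7 and Rps9 are lowest.

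Rpl39l replaces or accompanies Rpl39 in some ribosomes of the male germ line in the mouse. Its log2 level was 6.96 in ESC replicate 1, 7.33 and 7.74 in the 3-day EB, and 7.76 and 8.15 in the 7-day EB of the UniSet platform. On the Whole Genome arrays it was 9.21 in ESC, 10.59 in 3-day EB and 10.70 in 7-day EB. Each of the 6 EB samples was above the ESC sample of its platform. The fitted difference at 7 days was 1.24 ± 0.25 (SE; 2 ESC and 3 EB samples), an adjusted p of 0.036 by limma.

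At 3 days the difference was 0.92 ± 0.25, adjusted p 0.108 by limma, and between the EB ages it was 0.32, adjusted p 0.527. The 7-day call ended when any of 6 samples was left out. Without ESC replicate 1 the difference was 1.59 (adjusted p 0.120), and without ESC replicate 2 it was 0.95 (adjusted p 0.214). Leaving out 7-day EB replicates 1, 2 and 3 in turn gave 1.34, 1.14 and 1.23, with adjusted p of 0.0825, 0.0536 and 0.120. Without 3-day EB replicate 3, which only lends its spread, the difference was 1.21 (adjusted p 0.0660). On the UniSet arrays alone, which share 1 analysis date, it was 1.00 (adjusted p 0.265), and with median centring in place of quantile normalization 1.11 (adjusted p 0.0938). The rise kept its direction in each of the 20 alternatives run.

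Rpl39 itself, a small protein of the exit tunnel, did not pass the test. Its level was 12.38 in ESC replicate 1, 12.33 and 12.40 in 3-day EB, and 12.22 and 12.11 in 7-day EB on UniSet, and 14.35, 14.23 and 13.83 in the ESC, 3-day and 7-day EB of the Whole Genome arrays. All 3 of the 7-day EB samples were below the ESC sample of their platform, with a fitted difference of -0.34 ± 0.18 (adjusted p 0.302 by limma). Markers of the testis were also followed: Prm2 and Tnp1, the protamine and transition protein of sperm nuclei, were below background on the UniSet ESC arrays. Their summed normalized intensity was 8.03 in ESC replicate 1 and 9.37 to 16.9 across the 4 UniSet EB samples. On the Whole Genome arrays it was 74.7 in ESC, 146 in 3-day EB and 80.8 in 7-day EB, and its part in the Rpl39l rise was not tested.

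Other paralogues varied without passing the test. Rpl7l1, a relative of Rpl7 that is known from pre-ribosomes, had a log2 level of 7.45 in ESC replicate 1, 7.83 and 7.71 in 3-day EB and 7.57 and 7.98 in 7-day EB. Its Whole Genome level was 10.08, 10.77 and 11.03 in ESC, 3-day and 7-day EB. Its EB samples were all above ESC, by a fitted 0.59 ± 0.22 at 7 days (adjusted p 0.172 by limma), but 2 further Rpl7l1 probes on the Whole Genome arrays differed by -0.19 and 0.13 there. Rpl7 differed by 0.22 at 7 days on its tested probe, which was saturated on 3 of the 6 Whole Genome arrays.

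Rps27l, known in mouse and human as a p53-responsive relative of Rps27, measured 10.51 in ESC replicate 1, 10.87 and 10.93 in 3-day EB and 10.55 and 10.77 in 7-day EB. On the other platform it was 13.23 in ESC, 14.06 in 3-day EB and 13.80 in 7-day EB. All EB samples were higher than ESC, by a fitted 0.59 ± 0.20 at 3 days (adjusted p 0.166 by limma). Rps27 differed by 0.06 at 3 days and -0.02 at 7 days. Rpl36al differed by -0.27 at 7 days and Rpl36a by 0.13. Rpl3l, the striated-muscle relative of Rpl3, was below background on all 12 UniSet arrays and above it on the 6 Whole Genome arrays, at 5.89 in ESC, 5.80 in 3-day EB and 5.67 in 7-day EB, and was not tested.

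Of the stalk proteins, which recruit translation factors to the large subunit, Rplp0 and Rplp2 differed by -0.03 and -0.04 at 7 days, with saturated spots on 5 and 3 of the 6 Whole Genome arrays. Rplp1 measured 7.27 in ESC replicate 1, 7.38 and 7.61 in 3-day EB and 6.94 and 7.58 in 7-day EB on UniSet. In the Whole Genome samples it was 6.87 in ESC, 8.51 in 3-day EB and 7.38 in 7-day EB. The arrays of that ESC sample disagreed, reading 151 and 53.1 before normalization. All 3-day samples were above the ESC sample of their platform, by 0.23 on UniSet and 1.64 on the Whole Genome arrays, with a fitted difference of 0.82 ± 0.34 (adjusted p 0.2504 by limma). Rpsa, the laminin receptor homologue of the small subunit, had only an EST-derived probe across ESC and EB, at 7.45, 7.68 and 7.68 on the Whole Genome arrays, with no test.

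The largest 7-day difference among members belonged to Rps20, a protein of the small subunit head, and rested on a dim probe designed from an expressed sequence tag (EST). That probe measured 4.28 in ESC replicate 1, 5.55 and 4.86 in 3-day EB, 5.12 and 5.04 in 7-day EB, and 6.48, 8.79 and 8.63 in the Whole Genome ESC, 3-day and 7-day EB. It was below background on both arrays of ESC replicate 1 and above it on both of ESC replicate 2, where it read 149 and 32.0 before normalization. It was above background on 4 of 6 3-day and 6 of 6 7-day arrays. The probe thus passed the filter only through 7-day EB, where it was high, so its test is no independent support. Fitted differences of 1.41 ± 0.36 at 7 days and 1.55 ± 0.36 at 3 days missed the threshold, each with an adjusted p of 0.065 by limma. Without 3-day EB replicate 2 the 3-day value was 1.79 with an adjusted p of 0.0334. A second Rps20 probe, made to the RefSeq mRNA and present on the Whole Genome arrays only, measured 14.46 in ESC, 14.57 in 3-day EB and 14.40 in 7-day EB, with saturated spots in the 3-day sample.

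Rpl22, a large subunit protein whose loss is known to affect lymphocyte development in mice, also gave different answers by probe. Its brighter probe, which stood for the gene, measured 12.45 in ESC replicate 1, 12.61 and 12.55 in 3-day EB, and 12.34 and 12.38 in 7-day EB. On the dimmer probe the same samples measured 7.65, 8.10 and 8.28, and 8.62 and 8.66. In the Whole Genome samples the dimmer probe measured 10.33 in ESC, 11.04 in 3-day EB and 11.98 in 7-day EB, where the brighter one measured 14.51, 14.46 and 14.31. With every probe tested on its own, the dimmer probe differed by 1.26 ± 0.21 at 7 days (adjusted p 0.0206 by limma) and the brighter by -0.15 ± 0.17. Another probe, on the Whole Genome arrays alone, differed by 0.18 at 7 days.

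**Figure D2:**
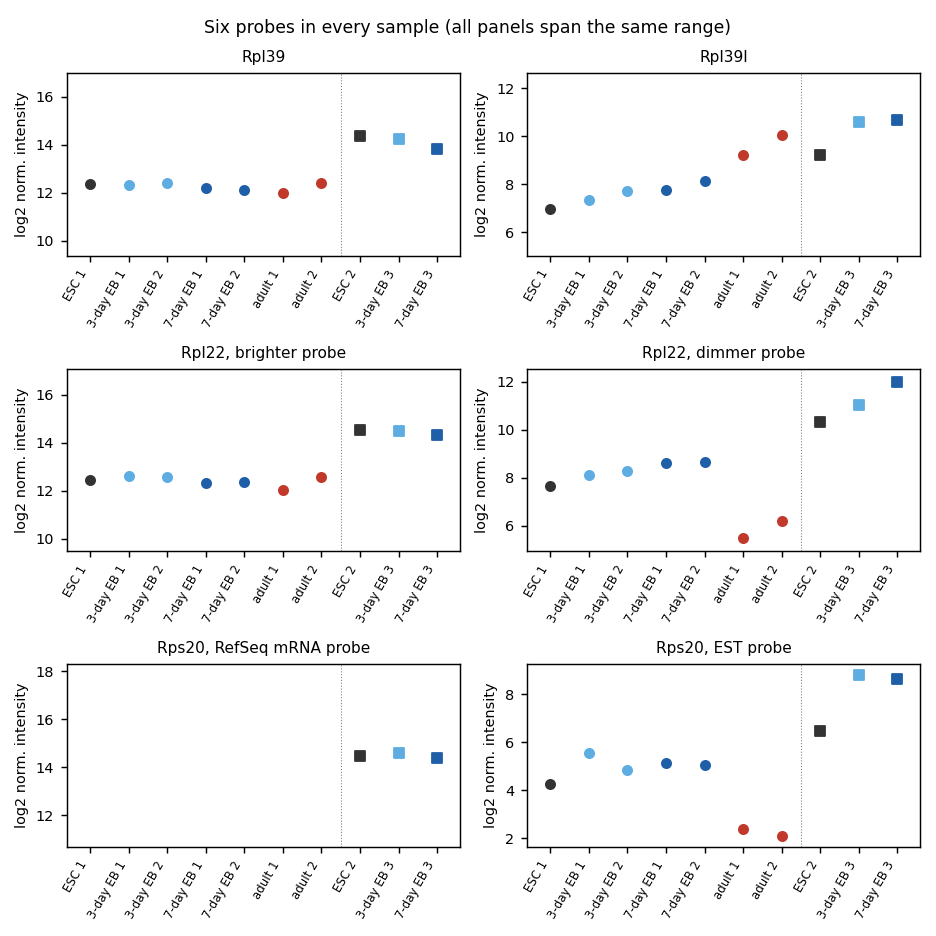
Log2 normalized intensity (y axis, the same span in every panel) of 6 probes in each sample, with circles for UniSet arrays, squares for Whole Genome arrays, and colours for ESC (black), 3-day EB (light blue), 7-day EB (dark blue) and adult tissue (red). Rpl39l, the dimmer Rpl22 probe and the Rps20 EST probe lie higher in every EB sample than in the ESC sample of the platform, while Rpl39 and the brighter Rpl22 probe differ less on both platforms, and the Rps20 mRNA probe has Whole Genome values only.

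The largest negative 7-day differences were in Rps7, Rps13, Rpl27, Rps9 and Rpl14, and none passed the test. Rps7, which in human cells also binds the p53 regulator MDM2, measured 10.48 in ESC replicate 1, 10.60 and 10.69 in 3-day EB and 10.28 and 10.23 in 7-day EB. Its Whole Genome level was 11.43 in ESC, 10.99 in 3-day EB and 9.45 in 7-day EB. The 7-day difference was therefore -0.22 on UniSet and -1.99 on the Whole Genome arrays, with a fitted -0.95 ± 0.36 (adjusted p 0.176 by limma). Rps13 differed by -0.24 on UniSet and -1.39 on the Whole Genome arrays, and Rpl27 by -0.15 and -1.23.

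Rps9 and Rpl14 pointed in opposite directions on the 2 platforms. Rps9, a protein of the small subunit body, differed at 7 days by 0.10 on UniSet and -1.44 on the Whole Genome arrays, and Rpl14 by 0.19 and -1.30. Both arrays of each of these samples had been averaged, and the arrays of 7-day EB replicate 3 differed by a median of 0.09 over the members. The arrays of ESC replicate 2, from which the Whole Genome differences were taken, differed by 0.25, the most of any sample. Over all genes tested they differed by a median of 0.41. A test of whether the change from ESC to EB, both ages pooled, differed between platforms called 0 of 6301 genes (0.00%) and 0 of 61 members, with 440 genes and 3 members, Rps20, Rpl5 and Rpl36, at an unadjusted p under 0.05. The smallest adjusted p among members was 0.674. With the ages pooled and 1 ESC sample per platform, this test can miss a platform difference present at 7 days alone. For Rps9, which differed by -0.02 at 3 days on the Whole Genome arrays, it gave -1.06 ± 0.75.

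Members reached only by Whole Genome probes had 1 sample per group and no test. In mRNA-derived probes, Rpl11 differed from ESC by 0.29 at 3 days and -0.89 at 7 days. Its probe shared by the platforms was saturated on 5 of the 6 Whole Genome arrays. On UniSet, where that probe was not saturated, it differed by 0.07 at 7 days. Rps15a differed by 0.92 and 0.50, and Rpl4 by -0.02 and -0.29 on a second probe. Among EST-derived probes, Rpl7a differed by 2.16 and 0.88, Rpl15 by 1.08 and -0.22, and Rpl29 by 1.14 and 0.63. In these 6 probes the 3-day sample was higher than the 7-day sample, and Rpl4 differed least.

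Few genes that act with the ribosomal proteins were called between ESC and EB. Of 41 tested ribosome biogenesis genes, which make, modify and assemble the subunits in the nucleolus, 0 passed at 7 days (median -0.06), and between the EB ages their median was -0.21. Among 58 mitochondrial ribosomal protein genes, 1 fell, Mrps12, by 2.96 ± 0.26 on the log2 scale (adjusted p 0.0031 by limma), and the list's median was 0.01. At 3 days 1 of them rose, Mrps7 by 0.91 ± 0.19, and Mrps12 fell by 2.37. The list's 3-day median was 0.33, with 48 of 58 above ESC, and between the EB ages it was -0.31, with 52 of 58 lower at 7 days and 0 called. None of 7 tested growth control genes, Mtor among them, passed at either age, and Myc and Mycn were not among those tested. Fau and Rack1, whose products join or cap the small subunit, differed by 0.12 and 0.04 at 7 days.

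Feeder and lineage markers moved in the same samples. Of 12 tested fibroblast markers 8 were lower at 7 days than in ESC (median -3.80), and their summed intensity was 4873 in ESC replicate 1 and 1334 to 2662 in UniSet EB, with Col1a1 and Lum below background in that ESC sample. Their Whole Genome sum was 31801 in ESC and 11174 to 11494 in EB. Visceral endoderm markers summed to 83.8 in ESC replicate 1 and 95.9 to 1162 in UniSet EB, and 2 of 5 tested were higher at 7 days. Of 8 tested markers of pluripotent cells, 1 was called higher and 0 lower at 7 days (median 0.19, with 5 positive and 3 negative). At 3 days 0 of them were called (median 0.08). The part of any of these markers in the member values was not tested.

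After quantile normalization the ribosomal protein messages were higher in ESC and EB than in adult tissue. Of the 61 tested members, 34 were called higher in ESC than in adult tissue, 41 in 3-day EB and 40 in 7-day EB, and 1, 3 and 3 were called lower. Median log2 differences were 1.08, 1.11 and 1.05, against 0.04, -0.00 and -0.03 over the 10084 genes tested. Rpl3, which sits near the catalytic centre of the large subunit, differed most, and Rpl39l, Rpl37a and Rpl41 were the members called lower.

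The background was wide in these comparisons. On simulated data with 200 of 10084 genes changed, the 7-day test recovered 0 of 100 genes changed by 1 on the log2 scale. Of 100 changed by 2 it recovered 38. In the data a far larger share of genes was called, which makes the adjusted threshold easier to pass, so this recovery does not carry over. Members not called may still differ. In ESC 51.9% of genes were called, 25.2% as higher and 26.7% as lower. In 3-day EB 62.0% were called, 30.5% as higher and 31.5% as lower, and in 7-day EB 61.8%, 29.5% as higher and 32.3% as lower. The comparisons share the same 2 adult samples, only 1 ESC sample lay on that platform, and the ESC is assumed to vary like the other groups. Both adult arrays carry another analysis date than the 10 ESC and EB arrays, so date and tissue cannot be told apart. The adult RNA contained messages of several organs: the summed intensity of Prm2 and Tnp1 was 7399 and 12753, of the lung genes Sftpc and Scgb1a1 7646 and 9641, and of the liver genes Alb and Cyp2e1 542 and 436, and in UniSet ESC and EB all of these probes lay below background. The muscle genes Ckm and Myh4 were below background in both adult samples, with summed intensities of 9.25 and 8.79. Of the brain genes, Gfap and Snap25 were above background there and Mbp was not. In bulk RNA, fewer cells of a type and less RNA per cell cannot be told apart.

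Across the 3 comparisons, 35 members were called in the same direction in all, 34 of them higher and Rpl39l lower than adult tissue. Another 9 were called in 1 or 2 of them, and 17 in none. The share of all genes called alike in all 3 is not given, and the comparisons share both adult samples. These counts therefore describe the members and do not set them apart from other genes. The large subunit counted 19 of 35 members higher in ESC, with a median of 1.08, and the small subunit 14 of 22, with a median of 1.13. At 3 days 23 large and 15 small subunit members were higher, and at 7 days 22 and 15.

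Rpl3 measured 12.04 in ESC replicate 1, 12.10 and 12.23 in 3-day EB, 12.20 and 12.07 in 7-day EB, and 8.99 and 8.40 in adult tissue. Both adult samples were below all 5 ESC and EB samples. Its log2 difference from adult tissue was 3.35 ± 0.34 in ESC, 3.47 ± 0.28 in 3-day EB and 3.44 ± 0.28 in 7-day EB, with adjusted p of 0.00030, 5.9e-05 and 5.7e-05 by limma. Rpl27, of the large subunit surface, measured 11.40 in ESC, 11.20 to 11.52 in EB, and 8.39 and 8.32 in adult tissue. It differed by 3.05 in ESC, 3.14 in 3-day EB and 2.89 in 7-day EB.

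Rpl13a, known in human monocytes as part of a complex that represses translation of inflammatory messages, measured 9.91 in ESC, 9.83 to 10.33 in EB, and 6.58 and 7.50 in adult tissue, a difference of 2.87 in ESC. Rps7 measured 7.57 and 7.64 in adult tissue, 2.87 below ESC, and Rpl8 9.04 and 9.18, 2.74 below. Rpl14 measured 6.91 and 7.55 in adult tissue and differed by 2.70 in ESC, 2.74 in 3-day EB and 2.89 in 7-day EB. Rps3, of the mRNA entry channel, measured 11.45 in ESC and 11.73 to 11.90 in EB against 9.03 and 9.15 in adult tissue. The Rps20 EST probe was below background on both adult arrays and on both ESC arrays, so no fold is given for ESC although it is among the 34. In 7-day EB, where it was above background on 4 of 4 arrays, it was at least 4.04-fold higher than in adult tissue. It was above background on only 2 of 4 3-day arrays, so no bound is given for 3-day EB. The probe thus passed the filter only through 7-day EB, where it was high, and its differences are a description.

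Other called members had smaller differences. Rps4x differed by 2.34 in ESC, 2.35 in 3-day EB and 2.34 in 7-day EB, Rpl4 by 2.20 to 2.40, and Rpl26 by 2.35 to 2.66. Rps13 and Rpl10a differed by 2.10 and 1.72 in ESC. The paralogue Rpl7l1 differed by 2.19, 2.51 and 2.51 in ESC, 3-day and 7-day EB, and Rpl7 by 0.82, 0.71 and 0.82. Of the stalk, Rplp1 differed by 1.49 in ESC, and Rplp0 and Rplp2 by 0.82 and 0.83 in ESC without passing there. Both were called higher in 3-day EB, at 0.93 and 0.82, and in 7-day EB, at 0.92 and 0.96.

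Some members lay near or below the adult level. Rpl37a and Rps21 differed by -0.57 and -0.38 in ESC, neither of them called there. Rpl37a was called lower in 3-day EB, at -0.65, and in 7-day EB, at -0.73. Rpl41 was saturated in 1 of the 2 adult samples, so its adult level is a minimum. Taken at the saturated value, it differed by -0.77 in ESC, not called, and by -0.65 and -0.81 in 3-day and 7-day EB, both called, and with the saturated spot left out it was not tested. Under median centring the 3-day values of Rpl37a and Rpl41 reversed, to 0.13 and 0.00. Rps27, Rpl32, Rpl11, Rpl39, Rpl35 and Rpl22 lay between -0.19 and 0.28 in all 3 comparisons and were called in none. The dimmer Rpl22 probe, tested on its own, was higher than adult tissue by 1.81 ± 0.36 in ESC and 2.80 ± 0.29 in 7-day EB. It thus differed from the brighter probe by more than 1 in every comparison with adult tissue.

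Rpl39l measured 9.24 and 10.05 in adult tissue, above all 5 UniSet ESC and EB samples. It was lower than adult tissue by 2.68 ± 0.42 in ESC, for which the log2 difference was -2.68 with an adjusted p of 0.0019 by limma. In 3-day EB the difference was -2.10 ± 0.34 and in 7-day EB -1.68 ± 0.34, with adjusted p of 0.0015 and 0.0042. The direction and the call held in all 15 alternatives for ESC and all 16 for each EB age. Testis markers were abundant in the same 2 adult samples, as given above, and their part in this difference was not tested.

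**Figure D3:**
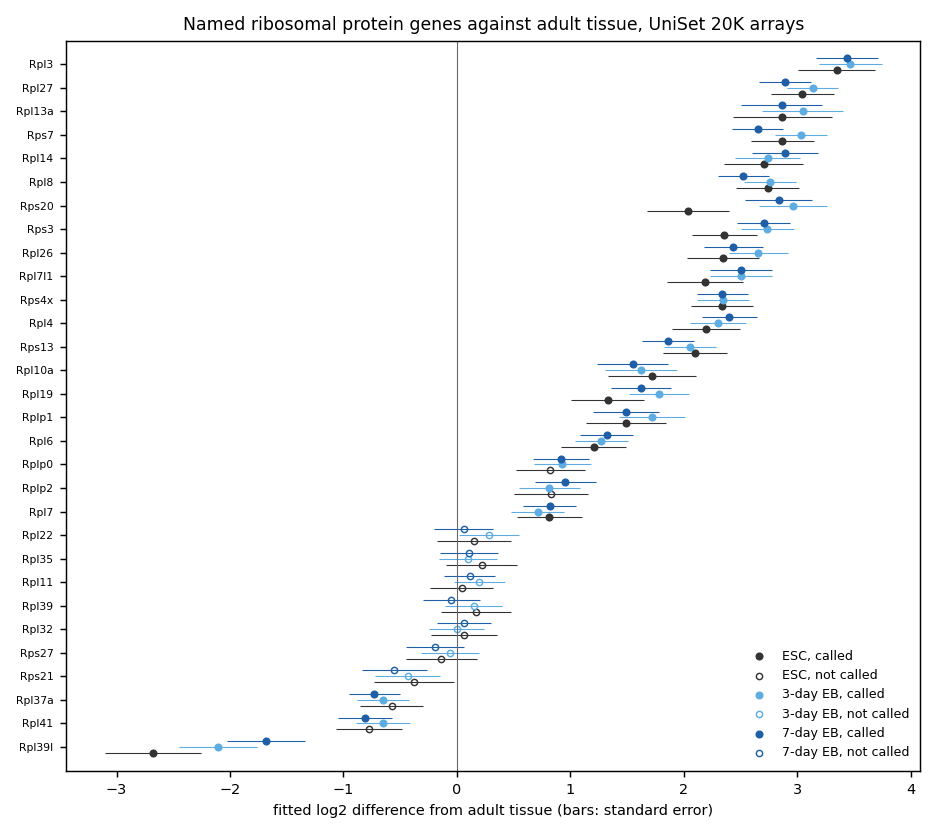
Fitted log2 difference from adult tissue (x axis, bars are SE) for members named in the text, in ESC, 3-day EB and 7-day EB, with filled symbols for called differences. Rpl3 is at the top with 3.35 to 3.47 and Rpl39l at the bottom with -2.68 to -1.68. Rpl41 is drawn at its saturated adult value.

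The size of the family's difference depended on how the arrays were scaled. With cyclic loess the members' medians were 0.30 in ESC, 0.38 in 3-day EB and 0.38 in 7-day EB, and 16, 23 and 22 members were called higher. In either direction it called 18, 26 and 27 of 61 members, a smaller share than the 52.8, 62.7 and 62.9% of all genes. Cyclic loess also moved the median of all genes to -0.36, -0.41 and -0.43. Relative to all genes, the members' medians were 0.66, 0.80 and 0.81 there, against 1.04, 1.11 and 1.08 with quantile normalization and 1.45, 1.50 and 1.26 with median centring. In all 3 scalings and all 3 comparisons, 17 members kept their call and direction: Rpl39l lower, and 16 higher, among them Rpl3, Rpl4, Rpl6, Rpl8, Rpl13a, Rpl14, Rpl19, Rpl26, Rpl27, Rpl7l1, Rps3, Rps4x, Rps7, Rps13 and Rps20. For Rps20 the ESC call sets 2 groups below background against each other, and its probe passed the filter only through 7-day EB, as given above. Its kept call is therefore no support. The share of all genes that kept call and direction in this way is not given, so the count of 17 is a description.

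Between ESC and EB the scaling mattered most for the 7-day samples. Median centring gave the members a median of -0.32 at 7 days, against -0.05 over all genes, and -0.49 between the EB ages, against -0.10. Cyclic loess gave -0.02 and 0.02. No member other than Rpl39l was called at 7 days under any of these scalings, and Rpl39l was called with quantile normalization and loess only.

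**Figure D4:**
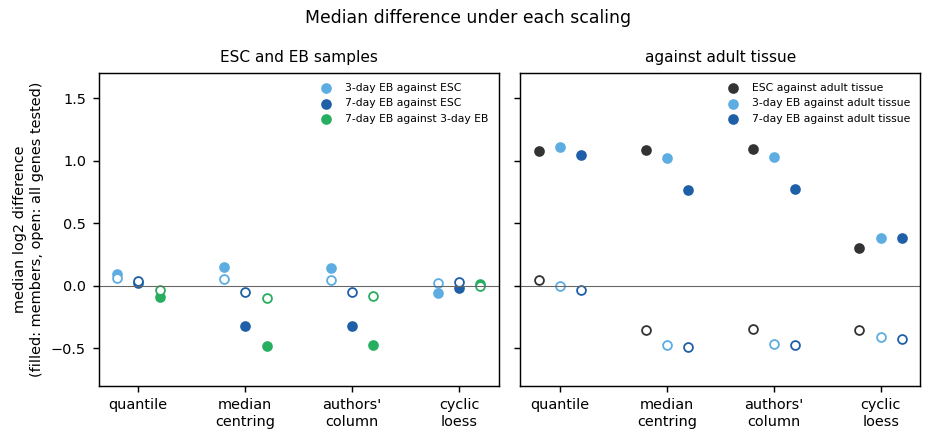
Median log2 difference (y axis) over the tested members (filled) and over all genes tested (open) under 4 scalings of the arrays, for the ESC and EB comparisons and for those with adult tissue. Members stay 0.66 or more above all genes in every comparison with adult tissue, while their 7-day median runs from -0.32 to 0.02 between ESC and EB.

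Ribosome biogenesis genes showed a larger difference from adult tissue. In ESC 39 of 43 tested were higher and 1, Imp4, was lower, with a median of 2.03. In 7-day EB 37 were higher and 2, Imp4 and Sbds, were lower, with a median of 1.98. Ncl, the nucleolar protein nucleolin, differed by 4.01 ± 0.23 in 7-day EB, and Fbl, the methyltransferase of ribosomal RNA, by 3.82 ± 0.30. Of 62 mitochondrial ribosomal protein genes 23 were higher and 3 lower in ESC, with a median of 0.81. Rack1, a scaffold on the small subunit, was higher by 2.27 ± 0.29 in ESC.

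The members' median over the 8 ESC and EB samples, after the platform means were taken out, ranged from -0.05 in 7-day EB replicate 3 to 0.10 in 3-day EB replicate 3. The tested genes most like it outside the family were Hoxb3, Bloc1s2, Pcdhb10, Thpo and Tpd52l1, with Pearson correlations of 0.985, 0.970, 0.954, 0.946 and 0.945 over 8 samples. Since the median moved by so little, these values describe these 8 samples and no more.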

How the data were processed

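RNA of 10 samples was amplified linearly, labelled with Cy5 and hybridised to CodeLink arrays, per the labels' protocols. The authors deposited 1 scanner export per array, whose raw column is an intensity per spot made by software version 4.1.0.29054, per the file headers. Some of these values are negative, which means a background was already taken off, and the planned normexp step was not applied. A second column holds the authors' median-normalized intensity (trim percentage 20, per the file headers), used as an alternative only. The deposited matrix and value tables were not used here.

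Masked, contaminated and irregular spots were left out. Values were quantile-normalized within each platform, raised to the median normalized negative control (3.50 on UniSet, 5.20 on Whole Genome arrays), put on the log2 scale and averaged per sample. Arrays with the same first number in their title were taken as 1 sample, which the labels do not spell out. Nothing says that samples came from separate cultures, so p-values measure only the spread between these samples. Of the 19758 shared gene probes, 15786 had 1 symbol, 49 several and 3923 none. Probes above background on every array of at least 1 group, with a value in every sample, were kept, and the brightest stood for its gene.

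For each difference limma 3.58.1 under R 4.3.3 was run with lmFit and eBayes, and p was adjusted by Benjamini-Hochberg over all genes tested (threshold 0.05). The fit between ESC and EB held 8 samples and a platform term (4 residual degrees of freedom), and the adult fit 7 UniSet samples (3 residual degrees of freedom). Both were tested on simulated data, whose outcome is given with the results. The number of arrays limits the precision. Where 1 group was below background, the fold is a lower bound: its arrays were set to their lowest signal above background, or to the probe's own signal if higher. The members and lists were chosen with earlier results of these data known. Named genes are every called member by count and the largest in full, the 5 largest and smallest differences per comparison, the stalk proteins, the paralogue pairs and members whose probes differ by more than 1. Not every gene this rule names is printed. Probes reached only by 1 set of arrays, and single mitochondrial or biogenesis genes, are examples chosen after their values were seen. Same-numbered EB samples deviated together on UniSet (correlation 0.32 over 6301 genes), which is 1 comparison of 2 pairs, so the numbers were not taken to pair samples.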

Additional observations from a re-analysis of the deposited data

Results flagged for a closer look

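Some member probes lay outside the comparisons and gave signal above background. On the adult arrays, 13 member probes were present that the ESC and EB arrays of the platform do not carry, and all 13 were above background on both adult arrays. They include Rpl10, Rpl15, Rpl21, Rpl28, Rpl7a, Rpl9, Rps12, Rps2, Rps23, Rps28, Rps6 and Rpsa. Raw intensities in the 2 adult samples were 6669 and 8005 for Rpl10, 12577 and 11482 for Rpl15, and 335 and 543 for Rpsa. On the Whole Genome arrays, 25 member probes of 20 genes were present alone, and 18 of them were above background on all 6 arrays. Neither of these groups of probes could be compared across groups with replicates.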

How the results depend on the processing

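The limits are few samples, 1 ESC sample per platform, dates confounded with 7-day EB replicate 3 and with adult tissue, and saturated member spots on the Whole Genome arrays. Normexp, and the date as a term for adult tissue, could not give a value, and masked spots have no value to keep. No normalization or leave-out changed the sign of the family's difference from adult tissue. Each scaling brings the arrays of a platform to a common level, although the adult arrays were brighter. Their ratio of median signal to negative control was 10.9 and 7.26, against 2.06 to 3.09 in UniSet ESC and EB. Raw intensity went both ways among called members. Rpl30 read 1970 and 2917 in ESC replicate 1 and 4365 and 4497 in adult tissue. Rpl3 read 3387 and 3119 against 1595 and 935. The sign without scaling was not tested.

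The 7-day count of 1 called member became 0 under median centring, the authors' column, no filter on dim probes (138 genes called of 18169), UniSet alone, the analysis date and the replicate block, and 2 with every probe on its own. Called genes in all were 326 in the main analysis, 1 with UniSet alone, 86 with the date, 157 with the replicate block and 24 without ESC replicate 2. The replicate block pairs samples by number only, gave Rpl39l 0.75 (adjusted p 0.242) and called 0 members, and the 7-day median was -0.036 with it. The 7-day median difference was -0.32 under median centring and under the authors' column, -0.020 under cyclic loess, -0.00070 with flagged spots kept, -0.011 without saturated spots (37 members tested) and -0.0033 with UniSet alone. The 3-day median was 0.15 under median centring, -0.056 under loess and 0.24 without saturated spots. Between the EB ages the median was -0.49 under median centring, -0.47 under the authors' column (-0.4750), 0.017 under loess, -0.25 without saturated spots, -0.073 with UniSet alone and -0.06 with the date (-0.0650). The causes were not tested.

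Against adult tissue, cyclic loess called 18, 26 and 27 members in ESC, 3-day and 7-day EB, with medians of 0.30, 0.38 and 0.38. Of all genes tested it called 52.8, 62.7 and 62.9%. Median centring gave 3-day and 7-day medians of 1.02 and 0.77, and the authors' column 1.03 and 0.78. The ESC median was 1.11 without the dim filter, 1.13 with every probe or the mean of probes, and 1.10 without saturated spots. With every probe, or their mean, the 3-day median was 1.20. Leaving out 1 sample at a time gave 0 to 1 called members at 7 days and at 3 days, 31 to 33 in ESC, 35 to 44 in 3-day EB and 33 to 44 in 7-day EB against adult tissue. The medians then ran from -0.022 to 0.035 (7 days), 0.05 to 0.10 (3 days), -0.11 to -0.06 (between ages, -0.1118 to -0.0650), 1.07 to 1.09 (ESC), 1.09 to 1.18 (3-day EB) and 1.02 to 1.14 (7-day EB).

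Signs turned for Rpl41 and Rpl37a in 3-day EB against adult tissue under median centring (0.00060 and 0.13) and the authors' column (0.0097 and 0.13). Under loess Rpl35a and Rpl36al turned, to -0.12 and -0.12 at 3 days and -0.24 and -0.20 at 7 days. Rps9 turned at 7 days against ESC with UniSet alone (0.10).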

Other observations

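The members that were low in 7-day EB replicate 3 were often also low in adult tissue, a pattern looked at after the values were seen. The 2 differences have no sample in common: 7-day EB replicate 3 minus ESC replicate 2 on the Whole Genome arrays, and adult tissue minus ESC replicate 1 on the UniSet arrays. Over 61 members their Pearson correlation was 0.43 and their Spearman correlation 0.33. For 28 members without a saturated spot the Pearson correlation was 0.42, and for 6241 genes tested in both fits it was 0.15. The same measure with 3-day EB replicate 3 gave 0.09. Members share probes, depth and library across these points, so the values are a description. Of the 10 lowest members in each set, 6 were in both, among them Rpl14, Rpl26, Rpl27, Rpl8 and Rps7. Relative to ESC replicate 2, the members named here differed in 7-day EB replicate 3 by -1.30, -0.90, -1.23, -0.80 and -1.99, and in the UniSet 7-day EB by 0.19, 0.09, -0.15, -0.21 and -0.22 against ESC replicate 1.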
